A study of Mus musculus with 16 samples.

Results

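The 10 genes described here are those of the interleukin 1 and IL-36 cytokine families that were looked up by symbol among the 55359 gene identifiers counted in mouse dorsal skin. They are *Il1a*, *Il1b*, *Il1rn*, *Il36a*, *Il36b*, *Il36g*, *Il36rn*, *Il1f10*, *Il18* and *Il33*, and all 10 were found and had enough reads to be tested. Whole skin came from 16 wild-type C57Bl/6 mice (C57Bl/6N per the study's methods), 8 weeks old and with hair follicles in telogen, in 4 groups of 4 mice each. UVB males and UVB females had been irradiated on the back 3 times with UVB on alternate days, and per the study's methods their skin was collected 6 h after the last exposure. The no-UVB males and no-UVB females were of the same strain and age and were not irradiated. The comparisons ask how these genes responded to UVB in each sex, and whether the responses of males and females differed.

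These cytokines are alarm signals of barrier tissues. IL-1α, IL-1β and the 3 IL-36 agonists bind receptors that share the chain IL1RAP and signal through MYD88 to NF-kB, and the antagonists encoded by *Il1rn* and *Il36rn* occupy the same receptors without signalling. IL-18 and IL-33 act through related receptors on lymphoid and other immune cells. In skin, keratinocytes are a main source of IL-1α, the IL-36 cytokines and both antagonists, while myeloid cells are a main source of IL-1β, and several of the proteins are made as precursors that proteases must cut, which RNA levels do not show.

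Reads on genes numbered 16495776 to 33404831 per mouse (median 21767339), on the strand that the directional library reports. Values are normalised read counts in CPM, which are the deposited counts scaled to library size by TMM, given as mean ± SD over 4 mice. A gene was called higher or lower at a Benjamini-Hochberg adjusted p under 0.1 in edgeR's quasi-likelihood test across all genes tested. In whole skin, a change in the number of cells that make an RNA and a change in RNA per cell cannot be told apart.

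Of the 10 genes, 8 lie on chromosome 2 of GRCm39. Within 198.3 kb, all on the + strand, follow *Il36b* (24043161 to 24050531), *Il36g* (24072000 to 24083585), *Il36a* (24105430 to 24115714), *Il36rn* (24166946 to 24173438), *Il1f10* (24181208 to 24183832) and *Il1rn* (24226865 to 24241506). *Il1a* (129140291 to 129152098) and *Il1b* (129206490 to 129213059) lie 104.9 Mb further along on the - strand, 54.4 kb apart. *Il18* is on chromosome 9 (50466081 to 50493633) and *Il33* on chromosome 19 (29902483 to 29938933), both on the + strand. Exons of *Il1a*, *Il1b*, *Il36g* and *Il33* overlap annotated antisense RNA genes. The share of a gene's reads on the opposite strand reached 13.6% in a mouse for *Il36a*, 13.1% for *Il1a*, 7.78% for *Il1b*, 2.82% for *Il36g* and 1.79% for *Il33*.

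The bases just before the starts of the clustered genes are shown because these neighbours, side by side, differed in their responses, from no detected change in *Il1f10* in males to log2 fold changes of 4.38 in *Il36b* and 5.78 in *Il36a* in the same mice. They are the 250 bases before each RefSeq start on GRCm38.p6, in the direction of the gene, and the RefSeq table held 9 of the 10 genes, without *Il36a*. Of the 3 windows of *Il1rn* only the first is printed, while the counts of motifs below include all 3. Capitals mark the letters of 4 searched motifs on either strand, which are GGG and CC with 5 bases of any kind between them for NF-kB, TGANTCA for AP-1, TTNNGNAA for C/EBP and TATAAA for the TATA box.
Il36b (chr2:24152922-24153171, + strand): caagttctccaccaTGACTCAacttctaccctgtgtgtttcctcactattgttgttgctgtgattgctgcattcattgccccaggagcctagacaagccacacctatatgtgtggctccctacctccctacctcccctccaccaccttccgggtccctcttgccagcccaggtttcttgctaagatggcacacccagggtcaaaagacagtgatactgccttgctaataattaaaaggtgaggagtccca
Il36g (chr2:24186226-24186475, + strand): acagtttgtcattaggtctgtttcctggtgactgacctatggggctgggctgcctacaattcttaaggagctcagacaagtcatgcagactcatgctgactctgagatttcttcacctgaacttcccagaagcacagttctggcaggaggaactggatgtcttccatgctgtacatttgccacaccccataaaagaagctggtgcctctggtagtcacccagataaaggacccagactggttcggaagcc
Il36rn, first start (chr2:24276704-24276953, + strand): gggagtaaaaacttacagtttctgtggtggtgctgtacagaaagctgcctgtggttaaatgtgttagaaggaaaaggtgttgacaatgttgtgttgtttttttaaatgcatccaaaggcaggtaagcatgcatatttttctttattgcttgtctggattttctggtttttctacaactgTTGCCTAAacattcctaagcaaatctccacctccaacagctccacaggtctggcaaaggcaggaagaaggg
Il36rn, second start (chr2:24277021-24277270, + strand): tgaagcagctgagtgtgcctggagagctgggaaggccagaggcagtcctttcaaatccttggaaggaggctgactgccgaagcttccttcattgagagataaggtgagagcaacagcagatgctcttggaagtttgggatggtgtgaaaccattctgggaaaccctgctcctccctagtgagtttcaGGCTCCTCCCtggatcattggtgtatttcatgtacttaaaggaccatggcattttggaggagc
Il1f10 (chr2:24290946-24291195, + strand): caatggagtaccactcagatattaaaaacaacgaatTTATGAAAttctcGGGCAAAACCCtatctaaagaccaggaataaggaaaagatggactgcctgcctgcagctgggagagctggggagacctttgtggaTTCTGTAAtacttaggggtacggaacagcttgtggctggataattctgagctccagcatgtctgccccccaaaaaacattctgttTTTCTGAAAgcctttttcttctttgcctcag
Il1rn, first start (chr2:24336610-24336859, + strand): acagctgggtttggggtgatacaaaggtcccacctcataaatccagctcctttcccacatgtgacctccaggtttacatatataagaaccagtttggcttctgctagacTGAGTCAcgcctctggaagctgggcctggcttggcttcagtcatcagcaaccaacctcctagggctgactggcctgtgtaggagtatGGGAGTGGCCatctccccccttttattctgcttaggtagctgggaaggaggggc
Letters of the AP-1 motif were in the windows of *Il36b* (236 bases before the start), *Il1a* (12 bases before the start) and 1 of the 3 windows of *Il1rn*, and in 6.75% of all 32851 windows of that length. NF-kB letters were in 1 of 2 windows of *Il36rn*, 2 of 3 of *Il1rn* and that of *Il1f10*, against 45.8% of all windows. C/EBP letters were in 8 of the 13 windows of the 9 genes, against 36.8% of all windows. These were the windows of *Il1a*, *Il1b* and *Il1f10*, both of *Il33*, 2 of *Il1rn* and 1 of *Il36rn*. TATA box letters were in 5 of the 13, those of *Il1a*, *Il1b*, *Il18* and both of *Il33*, against 12.4% of all windows. They began 32 bases before the start of *Il1a*, 31 before that of *Il1b*, and 203 and 29 before those of *Il33*. In *Il18* they began 175 bases before the start, on the opposite strand. None of the 4 motifs was in the window of *Il36g*. To judge by the positions of its neighbours, this RefSeq start lies inside the gene as placed above on GRCm39. The bases before that other start were not searched. A match of letters is not a measured binding site.

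After UVB, 9 of the 10 genes were higher in males and 8 in females, and none was lower. Over all genes tested, 29% were called higher in males and 12.8% in females, and 30.5% and 10.6% lower. A log2 fold change past 1 was reached by 7 of the 10 in each sex, against 4.08% of all genes in males and 1.63% in females. Their log2 fold changes had a median of 1.69 (males) and 1.26 (females), beside -0.02 and 0.00 over all genes tested. In 9 genes every UVB male was above every no-UVB male (21.9% of all genes), and in 7 genes every UVB female was above every no-UVB female (11% of all genes). The 3 IL-36 agonists had the highest fitted log2 fold changes in both sexes and their antagonist *Il36rn* came next, but differences between genes were not tested. In females the 95% intervals of *Il36rn* (1.218 to 1.793) and *Il18* (0.995 to 1.711) overlapped. Among no-UVB males, replicates 1 and 2 were both below replicates 3 and 4 for 9 of the 10 genes, and above them for *Il1b*. The share of all genes with such an order was not counted, so it is not shown to be particular to this family. All 9 genes called in males were also called without replicates 1 and 2 and without replicates 3 and 4, a choice made after seeing the data. The plot of each mouse's values shows the 4 groups.

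**Figure D1:**
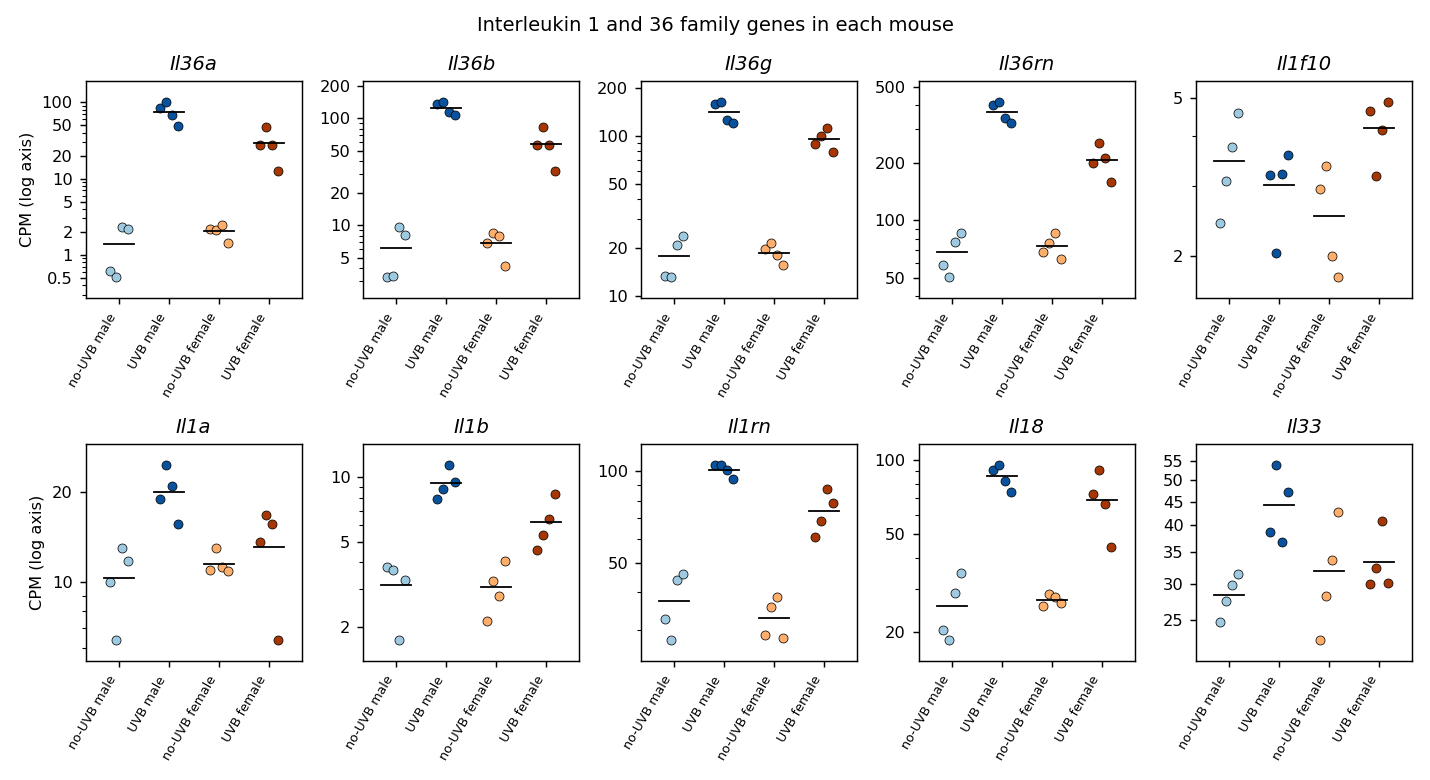
Normalised read counts (CPM, log axis) of the 10 genes in each mouse, by group. Points are mice in replicate order and lines are group means. The 3 IL-36 agonists and *Il36rn* show full separation of UVB from no-UVB mice in both sexes, while *Il1f10* overlaps between UVB and no-UVB mice in both.

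*Il36a*, an IL-36 receptor agonist, had the largest fitted log2 fold change of the family in both sexes. It had 13, 11, 54 and 38 reads in the 4 no-UVB males, or 0.606, 0.506, 2.34 and 2.18 CPM, and 83.2, 101, 68.0 and 49.2 CPM in the 4 UVB males. In no-UVB females it was at 2.17, 2.14, 2.46 and 1.42 CPM and in UVB females at 27.2, 48.0, 27.7 and 12.7 CPM. All irradiated mice were above all controls, and no-UVB males 1 and 2 were below 3 and 4, as for 8 other genes of the family. The fitted log2 fold change in males was 5.08 without no-UVB males 1 and 2 and 7.11 without 3 and 4. The mean rose 53.5-fold in males, from 1.41 ± 0.986 to 75.3 ± 22.0 CPM, and 14.1-fold in females, from 2.04 ± 0.443 to 28.9 ± 14.5 CPM. Fitted log2 fold changes, with the standard error (SE) from edgeR, were 5.78 among males (SE 0.441, edgeR adjusted p = 3.79e-05) and 3.81 among females (SE 0.388, 0.000358).

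*Il36b*, another agonist of the same receptor, followed. In males it was at 3.26, 3.36, 9.70 and 8.20 CPM without UVB and at 136, 142, 115 and 108 CPM after it. In females it was at 6.84, 8.56, 7.92 and 4.14 CPM without UVB and at 56.7, 83.1, 56.8 and 32.0 CPM after it. The groups did not overlap, and UVB female replicate 4 was the lowest irradiated mouse for all 3 agonists. The log2 fold change of *Il36b* was 4.38 among males (SE 0.351, edgeR adjusted p = 4.74e-05) and 3.05 among females (SE 0.301, 0.000307). The male value was 3.83 without no-UVB males 1 and 2 and 5.28 without 3 and 4.

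*Il36g*, the agonist that had most reads of the 3 in unirradiated skin, rose from 13.3, 13, 20.9 and 23.8 CPM to 158, 162, 126 and 119 CPM in males. In females it rose from 19.5, 21.3, 18.1 and 15.6 CPM to 88.9, 99.98, 112 and 78.6 CPM. Its fitted response was the smallest of the agonists, with a log2 fold change of 3.02 among males (SE 0.217, edgeR adjusted p = 1.37e-05) and 2.36 among females (SE 0.128, 2.13e-05). Per transcript length, the shares of the agonists' RNA were as follows. *Il36g* made up 64.2% ± 7.82 of the 3 agonists' CPM per kb in no-UVB males and 31.5% ± 1.52 in UVB males (SD, n = 4). *Il36a* went from 8.27% ± 3.15 to 30.8% ± 3.72 and *Il36b* from 27.6% ± 4.85 to 37.7% ± 2.29. In females the share of *Il36g* was 59.3% ± 4.67 without UVB and 43.7% ± 8.83 after it, and that of *Il36a* 12.1% ± 1.34 and 22.8% ± 5.58. The female share of *Il36b* was 28.7% ± 3.89 and 33.5% ± 3.34, with overlapping ranges of 23.4 to 32.0% and 29.6 to 37.1%. These shares were not tested.

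*Il36rn*, the antagonist of the IL-36 receptor, was at 58.2, 50.3, 77.4 and 86.1 CPM in no-UVB males and at 401, 416, 344 and 323 CPM in UVB males. In females it was at 68.1, 75.9, 85.6 and 63.0 CPM without UVB and at 199, 256, 213 and 159 CPM after it. Every UVB male was above every UVB female, and all of these were above every unirradiated mouse. UVB raised *Il36rn* on the log2 scale by 2.47 among males (SE 0.172, edgeR adjusted p = 6.35e-06) and 1.51 among females (SE 0.147, 0.000248). These fitted values are smaller than those of each of the agonists. The ratio of *Il36rn* to *Il36g* reads, which has no need of scaling between libraries, was 3.62 to 4.38 in no-UVB males and 2.54 to 2.74 in UVB males. In females the ratio was 3.49 to 4.73 without UVB and 1.91 to 2.56 after it. The groups did not overlap in either sex. The log2 ratio fell by 0.558 in males and by 0.858 in females, each with a two-sided exact permutation p of 0.0286, the smallest that 4 against 4 mice allow, and with 6 ratio tests the adjusted p was 0.0571.

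*Il1a*, which encodes IL-1α, an agonist held ready in keratinocytes, was at 10.02, 6.40, 13 and 11.8 CPM in no-UVB males and at 18.9, 24.7, 21.0 and 15.7 CPM in UVB males. In females it was at 11, 13, 11.2 and 10.9 CPM without UVB and at 13.6, 16.7, 15.6 and 6.42 CPM after it. The groups were apart in males and overlapped in females, where UVB female replicate 4 was below every control. *Il1a* rose among males (log2 fold change 0.98, SE 0.211, edgeR adjusted p = 0.00369), and the value among females was 0.20 (SE 0.246, 0.635). Without UVB female replicate 4 the latter was 0.42 (adjusted p = 0.0402 by edgeR).

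*Il1b*, which encodes IL-1β, an agonist released after cleavage by caspase-1, was at 3.82, 3.68, 1.73 and 3.33 CPM in no-UVB males and at 7.94, 8.81, 11.5 and 9.49 CPM in UVB males. In females it was at 2.12, 3.29, 2.78 and 4.04 CPM without UVB and at 4.58, 5.37, 6.39 and 8.37 CPM after it. UVB mice were above the controls of their sex in every case. UVB raised it on the log2 scale by 1.61 among males (SE 0.215, edgeR adjusted p = 0.000127) and 1.03 among females (SE 0.229, 0.0142).

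*Il1rn*, the antagonist of the IL-1 receptor, was at 32.6, 27.9, 44.0 and 45.9 CPM in no-UVB males and at 105, 105, 101 and 94.1 CPM in UVB males. In females it was at 29.0, 35.7, 38.7 and 28.2 CPM without UVB and at 60.6, 68.8, 87.7 and 78.4 CPM after it. UVB males varied little, with an SD of 5.08 CPM around a mean of 101. *Il1rn* rose by 1.45 among males (SE 0.144, edgeR adjusted p = 3.76e-05) and 1.17 among females (SE 0.135, 0.000525). The ratio of *Il1rn* to *Il1a* reads had a geometric mean of 3.69 in no-UVB and 5.10 in UVB males, and of 2.83 and 5.94 in females. On the log2 scale these differences were 0.467 (exact permutation p = 0.0571, adjusted p = 0.0857) and 1.07 (exact permutation p = 0.0286, adjusted p = 0.0571), and the female one was 0.723 without UVB female replicate 4. The ratio of *Il1rn* to *Il1b* differed by -0.173 in males and 0.154 in females (exact permutation p = 0.771 and 0.686). The plot of the ratios by mouse shows the higher *Il1rn* to *Il1a* and lower *Il36rn* to *Il36g* ratios after UVB, none of which passed an adjusted p of 0.05. No exact permutation p can be under 0.0286 here. With 6 tests, an adjusted p under 0.05 therefore needs more tests at that smallest value than were found.

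**Figure D2:**
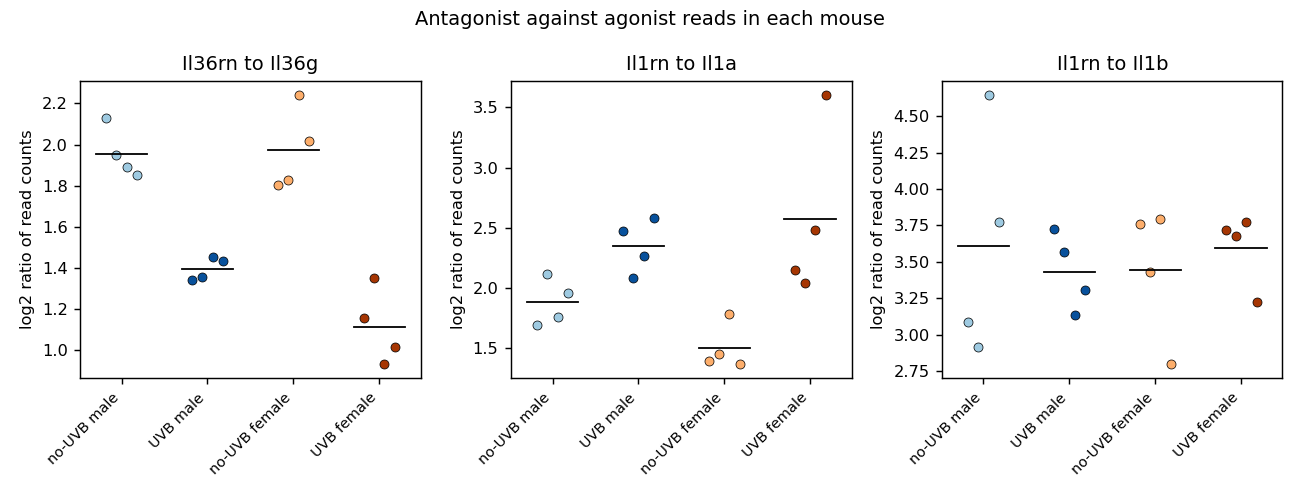
Log2 ratio of antagonist to agonist read counts in each mouse, for *Il36rn* to *Il36g*, *Il1rn* to *Il1a* and *Il1rn* to *Il1b*. Points are mice and lines are group means. The *Il36rn* to *Il36g* ratio of every UVB mouse lies below that of every control, while the *Il1rn* to *Il1b* ratios overlap.

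*Il18*, which encodes a cytokine that drives interferon gamma production, was at 20.4, 18.6, 28.7 and 34.8 CPM in no-UVB males and at 91.1, 95.5, 82.4 and 73.9 CPM in UVB males. In females it was at 25.5, 28.5, 27.7 and 26.2 CPM without UVB and at 72.9, 90.7, 66.0 and 44.3 CPM after it. Neither sex showed overlap between groups. *Il18* rose by 1.77 among males (SE 0.191, edgeR adjusted p = 9.9e-05) and 1.35 among females (SE 0.183, 0.00149). *Il33*, a nuclear alarmin of barrier and stromal cells, had the smallest rise in males, from 24.8, 27.5, 29.8 and 31.5 CPM to 38.8, 54.0, 36.8 and 47.2 CPM. That was 0.66 on the log2 scale (SE 0.121, adjusted p = 0.00109 by edgeR). Among females *Il33* was at 22.7 to 42.8 CPM without UVB and 29.9 to 40.9 CPM after it, with a log2 fold change of 0.07 (0.184, 0.829).

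*Il1f10*, which encodes IL-38, a family member described as an antagonist, departed from its neighbours. In males it was at 2.42, 3.08, 3.77 and 4.59 CPM without UVB and at 3.21, 2.04, 3.22 and 3.60 CPM after it, with -0.16 on the log2 scale (SE 0.219, adjusted p = 0.569 by edgeR). Among females it was at 2.95, 3.37, 1.997 and 1.77 CPM without UVB and at 4.63, 3.17, 4.16 and 4.88 CPM after it. *Il1f10* rose there by 0.74 (SE 0.225, edgeR adjusted p = 0.050), although UVB female replicate 2 lay below a control. Leaving out 1 mouse at a time, that call held in 4 of 8 fits, where the log2 fold change was 0.61 to 0.91. It lies 7.8 kb beyond the end of *Il36rn* and 43.0 kb before *Il1rn*, both of which rose in both sexes. The map of the cluster also holds the pseudogene *Gm13409*, on the opposite strand between *Il36a* and *Il36rn*, and *Psd4* beyond *Il1rn*, both chosen after their values were seen. *Gm13409*, at a mean of only 0.661 CPM, rose by 2.35 in males (adjusted p = 0.000607 by edgeR) and 1.54 in females (0.00845). *Psd4* rose by 0.58 (edgeR adjusted p = 0.000107) in males and was at 0.15 (0.312) in females.

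**Figure D3:**
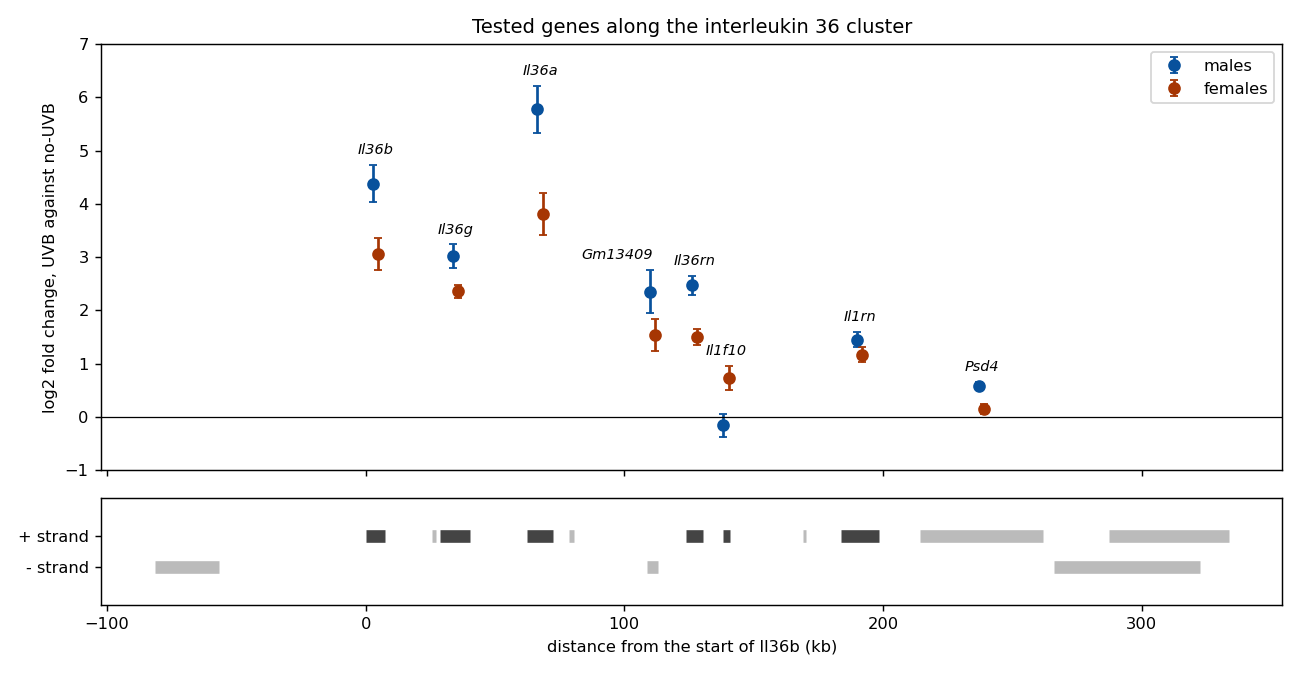
Log2 fold change after UVB with its standard error, in males and females, for the tested genes within 100 kb of the stretch from *Il36b* to *Il1rn*, against distance from the start of *Il36b* in kb. Dark bars below are the 6 family genes and light bars the other annotated genes. *Il1f10*, at 0.74 in females and -0.16 in males, stands between *Il36rn* and *Il1rn*, which rose in both sexes.

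Levels were also ranked per kb of canonical transcript, which makes genes of unlike length comparable. *Il36rn* came first in all 4 groups, at 24.7 ± 6.03 CPM per kb in no-UVB males, 135 ± 16.2 in UVB males, 26.6 ± 3.58 in no-UVB females and 75.0 ± 14.5 in UVB females. In unirradiated skin *Il18* was next, at 18.9 ± 5.55 CPM per kb in males and 19.9 ± 1.01 in females, and *Il1rn* followed, at 15.2 ± 3.54 and 13.3 ± 2.07. *Il36a* was last in no-UVB males, at 1.59 ± 1.12 CPM per kb, and next to last in no-UVB females, at 2.32 ± 0.502. Every pair of neighbours in the no-UVB male order overlapped. In UVB males *Il36b* (102 ± 13.5 CPM per kb), *Il36g* (85.5 ± 13.3) and *Il36a* (85.3 ± 24.9) followed *Il36rn* and overlapped each other, and the lowest mouse for *Il36rn*, at 117 CPM per kb, was above the highest for *Il36b*, at 116. *Il18*, *Il1rn* and *Il33* came after them, at 63.2 ± 7.07, 40.9 ± 2.05 and 13.1 ± 2.35 CPM per kb, each without overlap with the next gene. *Il1b*, *Il1a* and *Il1f10* closed the order at 6.95 ± 1.10, 5.87 ± 1.10 and 5.61 ± 1.25 CPM per kb and overlapped. In UVB females *Il36g* was second, at 57.4 ± 8.62 CPM per kb, and all neighbours overlapped but *Il1rn* and *Il33*.

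Without UVB, 0 of the 10 genes differed between males and females by edgeR in the 16 mice together, at an adjusted p under 0.1 and also at an unadjusted p under 0.05, and DESeq2 called 0, while 11.8% of all genes were called. After UVB, 6 of the 10 were higher in males, against 12.8% of all genes called higher. They were *Il36a* (log2 difference 1.38, adjusted p = 0.0167 by edgeR), *Il36b* (1.13, 0.0217), *Il36rn* (0.84, 0.00404), *Il1b* (0.61, 0.0749), *Il36g* (0.58, 0.0325) and *Il1rn* (0.45, 0.0455). The 4 IL-36 genes and *Il1rn* had every UVB male above every UVB female, 5 of the 10 against 11.5% of all genes. *Il1a* at 0.61 (edgeR adjusted p = 0.101), *Il33* at 0.40 (0.111), *Il18* at 0.32 (0.272) and *Il1f10* at -0.46 (0.181) were not called. Leaving out 1 mouse at a time, the 4 IL-36 genes were called in 16 of 16 fits, *Il1rn* in 13 and *Il1b* in 11. With no filter beyond a single count, *Il36a*, *Il36b* and *Il36rn* were still called and *Il36g* (adjusted p = 0.112 by edgeR), *Il1b* (0.134) and *Il1rn* (0.143) were not.

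The difference between the male and female responses was itself tested as the interaction of UVB and sex. It was called for 1 gene, *Il36rn*, whose log2 fold change was larger in males by 0.95 (SE 0.235, edgeR adjusted p = 0.0427), while 2.75% of all genes were called larger in males. That call was kept in 16 of 16 fits that left out a mouse (0.83 to 1.08), and was lost with no filter beyond a single count (adjusted p = 0.121). Without both no-UVB males 1 and 2, *Il36rn* was at 0.68 (edgeR adjusted p = 0.184) and 0 of the 10 genes were called, against 0.992% of all genes. Without no-UVB males 3 and 4, 6 were called, against 10.3% of all genes, namely *Il36rn* (1.27, edgeR adjusted p = 0.0091), *Il36g*, *Il36b*, *Il36a*, *Il1rn* and *Il18*. The fitted difference was larger for *Il36a*, at 1.95 (edgeR adjusted p = 0.119), and *Il36b*, at 1.31 (0.140), whose values spread more between mice. Without no-UVB males 1 and 2 these were 1.25 and 0.76, and without 3 and 4 they were 3.27 and 2.20. The fitted difference in all mice was 0.65 for *Il36g* (edgeR adjusted p = 0.161), 0.77 for *Il1a* (0.226), 0.57 for *Il33* (0.191), 0.56 for *Il1b* (0.353), 0.40 for *Il18* (0.439) and 0.27 for *Il1rn* (0.502). *Il1f10* had -0.91 (edgeR adjusted p = 0.134). At an unadjusted p under 0.05 there were 7 of the 10 genes, 6 with the larger response in males and *Il1f10* with the smaller, against 20.8% of all genes. DESeq2's Wald test called 5 genes, *Il1f10* among them as the one with the smaller response in males, against 12.5% of all genes, so that the count of genes with a different response depends on the test as well as on these mice. The plot of responses by sex sets the values side by side.

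**Figure D4:**
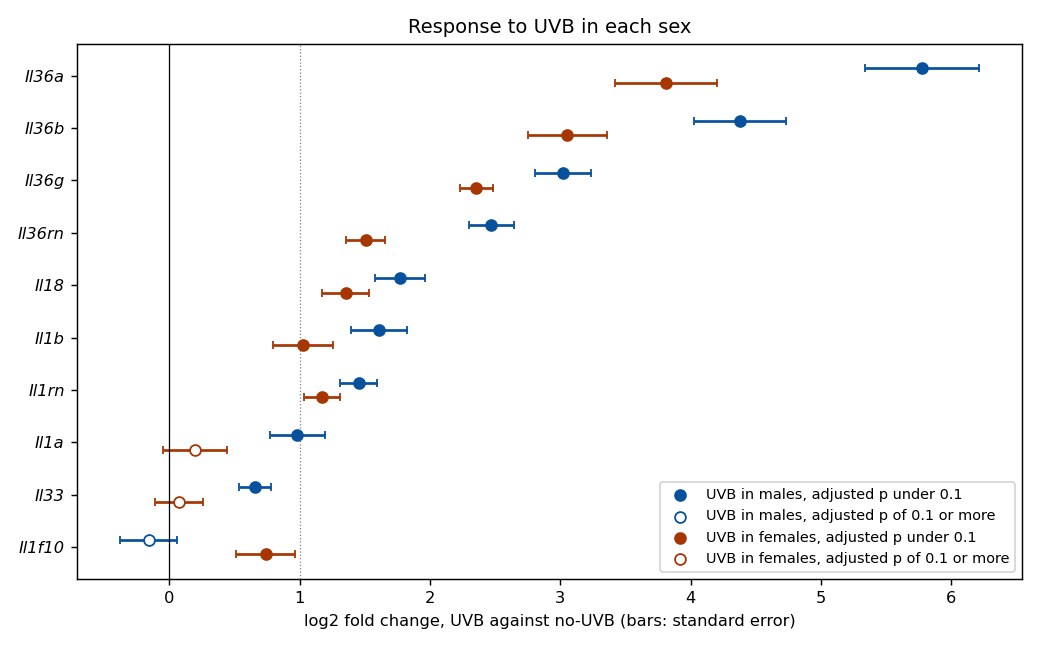
Log2 fold change after UVB in males and in females for the 10 genes, with standard errors. Filled points had an adjusted p under 0.1 in edgeR's test, and the dotted line marks a log2 fold change of 1. The male value is the larger one for every gene but *Il1f10*, and the difference itself was called for *Il36rn* alone, at 0.95.

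No tested receptor gene reached a log2 fold change of 1 in either direction. *Il1rl2*, the receptor chain that binds IL-36, rose in males from 98.8 ± 6.79 to 143 ± 9.20 CPM (log2 fold change 0.55, edgeR adjusted p = 4.44e-05) and went from 90.8 ± 3.87 to 108 ± 17.97 in females (0.25, 0.147). *Il1rap*, the chain shared by the IL-1, IL-33 and IL-36 receptors, fell by 0.54 in males (edgeR adjusted p = 0.00019) and by 0.32 in females (0.0300). *Il1r2*, the decoy receptor of IL-1, fell from 105 ± 18.4 to 59.9 ± 10.3 CPM in males (-0.79, edgeR adjusted p = 0.00212) and from 76.1 ± 16.2 to 57.5 ± 6.55 in females (-0.40, 0.0953). *Il18r1*, which binds IL-18, fell by 0.93 in males (edgeR adjusted p = 0.000607) and by 0.58 in females (0.0675). *Il1r1*, the signalling receptor of IL-1, was at -0.09 in males (adjusted p = 0.289 by edgeR) and -0.26 in females (0.205). *Il1rl1*, the IL-33 receptor, fell by 0.47 in males (edgeR adjusted p = 0.0243) and was at 0.13 (0.622) in females. *Il18rap* was at 0.29 (edgeR adjusted p = 0.153) and -0.22 (0.583), and *Sigirr*, an inhibitory receptor of the family, rose by 0.25 in males (0.0682) and was at 0.20 (0.286) in females. Of 9 tested receptor and decoy genes, 2 were higher and 4 lower in males and 0 higher and 3 lower in females, beside 29% higher and 30.5% lower of all genes in males and 12.8% and 10.6% in females, with a median of -0.09 and -0.22.

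Among 12 adaptors and kinases of the pathway, 8 were higher and 0 lower in males and 2 higher and 0 lower in females, beside 29% and 30.5% of all genes in males and 12.8% and 10.6% in females, with medians of 0.33 and 0.14 and no log2 fold change past 1. Of 16 genes for NF-kB subunits and inhibitors, 6 were higher and 2 lower in males and 1 higher and 0 lower in females, beside the same shares of all genes, with medians of 0.15 and -0.05. The genes that fell in males were *Nfkbia* (-1.11, edgeR adjusted p = 0.0235) and *Tnfaip3* (-1.19, 0.0404), both feedback inhibitors of NF-kB. *Nfkbia* ranged from 111 to 260 CPM in no-UVB males and from 72.0 to 91.4 in UVB males, and *Tnfaip3* from 25.9 to 74.4 and from 17.8 to 23.8, so that neither gene's groups overlapped. Of 18 tested genes for inflammasome parts and processing enzymes, 8 were higher and 3 lower in males and 3 higher and 1 lower in females, again beside 29% and 30.5% of all genes in males and 12.8% and 10.6% in females, with medians of 0.22 and -0.03 and none past 1.

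The list of 22 cytokine and antimicrobial genes that keratinocytes make on IL-1 or IL-36 stimulation had reads enough to test 11 in males and 10 in females. Called higher were 11 of the 11 tested in males and 6 of the 10 in females, against 29% and 12.8% of all genes tested. *Defb14*, an antimicrobial beta-defensin gene, rose from 0.851 ± 0.602 to 14.5 ± 3.71 CPM in males (4.15, edgeR adjusted p = 1.92e-05) and from 0.803 ± 0.178 to 3.11 ± 1.79 in females (1.97, 0.00933). *Lcn2*, which encodes an iron-binding antimicrobial protein, rose by 1.78 in males (edgeR adjusted p = 5.95e-05) and 1.46 in females (0.000857). *Cxcl1*, a neutrophil chemokine gene, stayed low, at 1.22 ± 0.359 CPM in UVB males and 1.48 ± 0.504 in UVB females, with log2 fold changes of 1.17 (edgeR adjusted p = 0.0134) and 1.51 (0.0205). *Ptgs2*, which encodes the prostaglandin enzyme Cox-2, rose by 1.09 in males (edgeR adjusted p = 0.000469) and by 1.01 in females (0.0705). The chemokine genes *Ccl20* and *Ccl2* rose in males by 1.18 (edgeR adjusted p = 0.0112) and 1.12 (0.000229), and in females *Ccl20* rose by 0.77 (0.0828) while *Ccl2* was at 0.24 (0.323). *S100a9* and *S100a8*, whose products form calprotectin, rose in males by 4.55 (edgeR adjusted p = 0.000385) and 3.67 (0.00244), and in females *S100a9* rose by 2.29 (0.00033) while *S100a8* was at 0.17 (0.812). *Defb3*, another beta-defensin gene, had 0 to 2 reads in no-UVB and 18 to 55 in UVB males, and 0 and 0 to 8 in females, where it was not tested. Genes such as *Defb3* passed the filter on low reads only through the group where they were high, so that the count of this list is in part set by the filter. The plot of pathway genes sets these lists beside the 10 family genes.

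**Figure D5:**
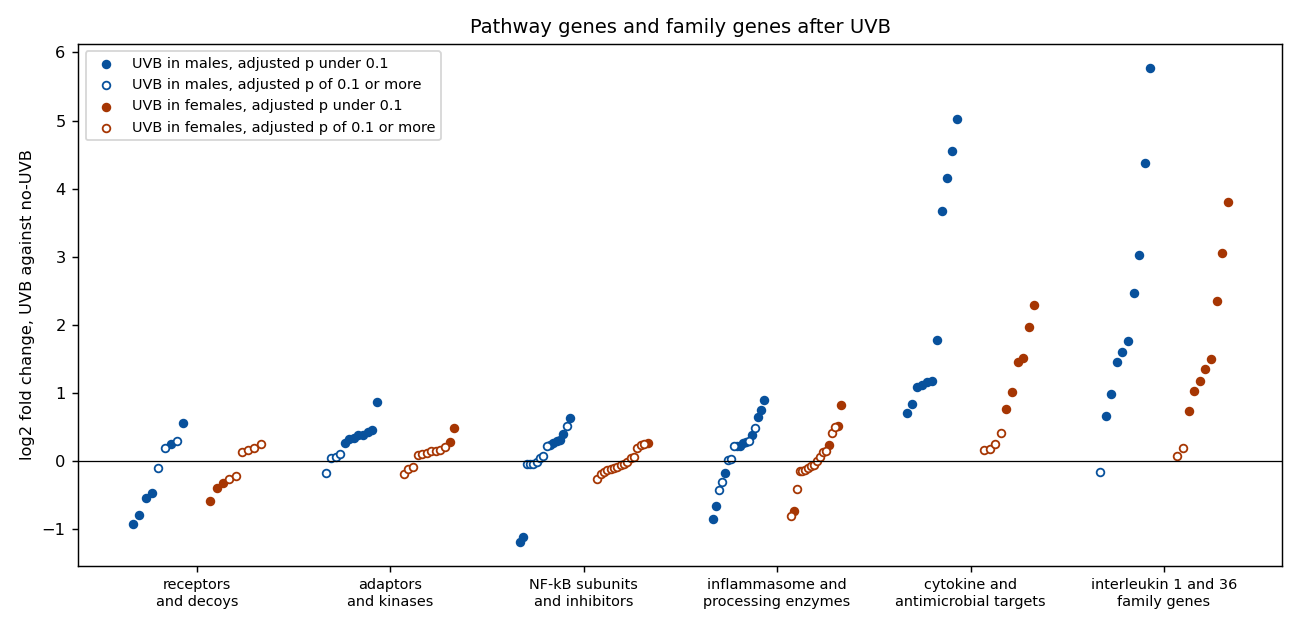
Log2 fold change after UVB of each tested gene of 5 pathway lists and of the 10 family genes, in males and in females. Filled points had an adjusted p under 0.1 in edgeR's test. *Il36a*, at 5.78 in males and 3.81 in females, is the highest family gene in each sex, the lists overlap in range, and no receptor or adaptor passes 1 in either direction.

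Markers of other cells moved with these genes in part. Their counts stand beside 29% higher and 30.5% lower of all genes in males and 12.8% and 10.6% in females, and a count near those shares is no result about a cell type. Suprabasal keratinocyte markers rose in both sexes, 5 of 5 tested, with a summed level of 5494 to 8172 CPM in no-UVB and 16950 to 22960 in UVB males, and of 4862 to 7455 and 9382 to 12470 in females. The 4 stressed keratinocyte markers summed to 651 to 835 CPM in no-UVB and 3333 to 6156 in UVB males, with 4 higher, and to 529 to 1017 and 843 to 1507 in females, with 3 higher. Of 6 basal keratinocyte markers, 3 were higher in males and 1 in females. The 12 neutrophil markers, among them the *S100a8* and *S100a9* genes that keratinocytes also express, summed to 11.4 to 19.1 CPM in no-UVB and 55.5 to 162 in UVB males, and to 11.1 to 17.1 and 21.4 to 31.9 in females, with 5 of 7 tested higher in males and 2 of 5 in females. The defining marker *Ly6g* had 0 reads in every mouse but 1, a no-UVB female, while *Cxcr2* reached 5.74 ± 0.499 CPM in UVB males. Of 10 monocyte and macrophage markers, 2 were higher and 5 lower in males and 0 higher and 1 lower in females, with sums of 1837 to 2432 CPM in no-UVB and 1597 to 1985 in UVB males. Of 6 Langerhans and dendritic cell markers 1 was higher and 5 were lower in males, and 0 higher and 1 lower in females. Of 7 T cell markers 1 was higher and 6 were lower in males, and 0 higher and 3 lower in females. The 5 skeletal muscle markers were all lower in males and none was called in females, and of 5 adipocyte markers 3 were lower in males and none was called in females. Of 5 mast cell markers 1 was higher and 1 lower in males and 3 were higher in females, of 4 sebocyte markers 2 were higher in males and 1 in females, and of 6 endothelial markers none was called in either sex. The 6 fibroblast markers, with 5 lower after UVB in males and 1 higher and 1 lower in females, took 79060 to 86270 CPM in no-UVB males against 19200 to 20540 in no-UVB females. The markers did not share that difference alike. On the log2 scale it was 2.55 for *Col1a1*, 2.35 for *Col1a2* and 1.82 for *Col3a1*. It was 0.75 for *Lum*, while *Dcn* (0.19) and *Pdgfra* (-0.28) were not called. In the interaction test, 3 of 4 stressed keratinocyte and 1 of 5 suprabasal markers had a larger response in males. So had 3 of 7 neutrophil and 1 of 6 basal markers, against 2.75% of all genes. Of fibroblast markers 3, and of skeletal muscle markers 4, had a lower log2 fold change in males, a direction without a share of all genes here. The part of these cell types in the levels of the interleukin genes was not tested.

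For the 9 family genes called in males, without *Il1f10*, the genes whose levels moved most alike were found over the 16 mice among 15142 genes with a mean of at least 1 CPM, as the smallest root mean square difference of log2 CPM after centring. *Csta1*, a stefin gene with close paralogs among which reads may be shared, was nearest to *Il18*, at a difference of 0.101 on the log2 scale, and *Cysrt1* was second at 0.161. *Dsc1*, which encodes a desmosomal cadherin of the upper epidermis, and *Alox12b*, a lipoxygenase gene of the skin barrier, were nearest to *Il1rn*, at 0.126 and 0.127. *Klk9* and *Hrnr*, the gene of the cornified layer protein hornerin, were nearest to *Il36g*, at 0.165 and 0.206. *Gm6551* and the kallikrein gene *Klk8* were nearest to *Il36rn*, at 0.146 and 0.148. The nearest to *Il36b* were *Chga* and *Flg*, the filaggrin gene, at 0.371 and 0.434, and those to *Il36a* were *Teddm3* and *Sprr2d*, a small proline-rich gene of the cornified envelope, at 0.552 and 0.601. *Il1a* had *Plcxd1* (0.188) and *Nuf2* (0.248), *Il33* had *Scd2* (0.161) and *Ston2* (0.170), and *Il1b* had *Tubb2a* and *Snhg3* no nearer than 0.334 and 0.340. The distances include the differences between the 4 groups.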

How the data were processed

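RNA of whole dorsal skin from 16 mice was made by the authors into poly(A)-selected, directional libraries and aligned with STAR to GRCm39. The STAR version and annotation release are not given in the sources used here. The deposited files hold whole-number read counts per Ensembl gene, without normalization, in 3 columns. The column on the gene's own strand under this kit was used, since the other strand held 3.63 to 4.23% of gene reads. Between 70.08 and 79.22% of each library was on genes, and reads mapping to several places were listed as 0, so reads shared between near-identical genes are not seen. All mice and tables were used. Libraries of a group differed beyond sampling noise (smallest chi-square per degree of freedom 10.4), and p-values measure the spread between these mice.

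Gene names came from GENCODE M39 (54749 of 55359 identifiers). Genes were filtered by filterByExpr, scaled by TMM and tested with edgeR 4.0.16's quasi-likelihood test with robust estimation in R 4.3.3, on the 8 mice of a sex for UVB and on all 16 for the interaction and for males against females, without covariates. Adjusted p-values are Benjamini-Hochberg over all genes tested, with 0.1 as threshold after the study's methods. Ratios of reads (0.5 added) were tested by two-sided exact permutation over mice, with a threshold of 0.05. Alternatives were counts without regard to strand, DESeq2 1.42.0, other scalings, filters and thresholds, 1 fit of all mice, the replicate number as a block, leaving out each mouse, and, added after seeing the data, leaving out no-UVB males 1 and 2 or 3 and 4. On simulated data with a log2 fold of 2, 200 of 200 changed genes were recovered in the male comparison, 200 of 200 in the female one and 199 of 200 for the interaction, with 18, 18 and 15 false calls. The simulation gave all genes the same dispersion between mice and changed only genes above a minimum of expected reads. It does not measure how often smaller differences, or those of noisier genes with few reads, would be found.

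The 10 genes, the pathway and cell type lists and the tests were chosen with earlier results of these data known. All 10 genes are named, with 8 receptor genes, pathway list genes past a log2 fold change of 1, defining markers of cell types, and the 2 genes most like each gene called in males. Python 3.11.15, pandas 2.3.3 and matplotlib 3.10.9 made tables and plots.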

Additional observations from a re-analysis of the deposited data

Results flagged for a closer look

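*Il1a* in no-UVB females had 13 CPM in replicate 2, apart from 10.9 to 11.2 CPM in the other mice of that group, by a gap above Dixon's 95% critical value for 4 samples. Such a gap arises by chance in about 1 in 20 groups, and 40 groups were looked at. The response of *Il36rn* to UVB was larger in males than in females by 0.95 on the log2 scale in edgeR's test of the interaction, and by 0.68, which was not called, without no-UVB males 1 and 2.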

How the results depend on the processing

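The 9 genes called in males were called in every fit that left out a mouse and under each alternative but a required log2 fold change past 1, which left 7. The 8 in females became 7 with that requirement or an adjusted p under 0.05, and 7 to 8 without a mouse. The count of genes with a different response in males and females, 1 here, was 5 with DESeq2's Wald test, 0 with every gene of at least 1 count (7 had an unadjusted p under 0.05 in the fit reported, against 20.8% of all genes), 2 with at least 10 counts in every mouse, and 1 to 3 without a mouse. It was 2 without UVB female replicate 2, no-UVB female replicate 1, UVB male replicate 4 or no-UVB male replicate 4, and 3 without no-UVB male replicate 3. With 2 no-UVB males left out together, chosen after seeing the data, it was 0 without replicates 1 and 2 and 6 without 3 and 4, while 9 genes were called in males and 0 between no-UVB males and no-UVB females either way. The count higher in UVB males than in UVB females, 6 here, was 3 with every gene of at least 1 count and 4 to 8 without a mouse. For the fits with other filters or thresholds or without 1 mouse, the share of all genes called is not given here. A change in these counts is therefore not told apart from a change over all genes. The cause of the changes was not tested.

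Deviations from the group mean were correlated between UVB and no-UVB mice of a sex. Same-numbered mice had correlations of -0.288 to 0.394, within the -0.413 to 0.427 of mice with unlike numbers. The numbers thus showed no pairing here, while shared litters, days or batches were not tested. With the replicate number as a block, 9 genes were called in males, 8 in females, 2 for the different response (*Il36a* added) and 8 between UVB males and UVB females. The share of all genes called in that fit is not given here. As 4 pairs, the ratios of reads cannot fall under an exact permutation p of 0.125.

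From counts without regard to strand, the log2 ratio of *Il1rn* to *Il1a* differed by 0.472 in males and 1.055 in females and that of *Il36rn* to *Il36g* by -0.555 and -0.856, with an adjusted exact permutation p of 0.0429. Without a mouse, *Il1rn* to *Il1a* ranged from 0.390 to 0.556 in males and 0.723 to 1.246 in females, and *Il36rn* to *Il36g* from -0.591 to -0.500 and -0.937 to -0.768. *Il1rn* to *Il1b* ranged from -0.404 to 0.175 in males, positive without no-UVB male replicate 3, and from -0.063 to 0.278 in females, negative without no-UVB female replicate 4.

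Values that were not called and changed sign without a mouse were *Il33* in females (-0.060 to 0.241) and, between no-UVB males and no-UVB females, *Il1a* (-0.301 to 0.010), *Il1b* (-0.094 to 0.251), *Il36b* (-0.522 to 0.029), *Il36g* (-0.241 to 0.049), *Il36rn* (-0.238 to 0.014) and *Il18* (-0.255 to 0.049). Without no-UVB males 1 and 2, the difference between no-UVB males and no-UVB females changed sign to 0.108 for *Il1a*, -0.291 for *Il1b*, 0.128 for *Il36a*, 0.374 for *Il36b*, 0.262 for *Il36g*, 0.162 for *Il36rn* and 0.234 for *Il18*. Without 3 and 4 it was -0.124 for *Il1rn*, and *Il1f10* was at 0.187 for UVB in males. None of these was called. *Il36a* had 11 to 75 reads in the controls, which limits the precision of its fold changes.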
